A study of Drosophila melanogaster with 212 samples.

Results

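Innexins are the proteins that build gap junctions in flies, and 8 innexin genes are described here: ogre, Inx2, Inx3, Inx5, Inx6, Inx7, shakB and zpg. They were picked by gene symbol from the 17104 genes of a single-cell RNA-sequencing table, whatever their values. For each gene it was asked whether it was read in cells that hold the marker of the sorted neurons, Tdc2, and whether its level across cells followed nrv2, a gene for a sodium pump subunit that is abundant in glia. The cells were sorted by fluorescence from Drosophila melanogaster brains as octopaminergic/tyraminergic neurons with a green fluorescent membrane reporter, and came from 6-day-old females and males, either wild type or mutant for nervy. The labels did not name the nervy allele, the driver of the reporter or the animal behind a cell. Each genotype of each sex is therefore 1 sample (4 groups in all), and no difference between groups has a replicate check. Intervals of summed levels cover counting error only, and intervals of shares take each cell as an independent draw.

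A gap junction is a cluster of channels that joins the cytoplasm of touching cells, so that ions and small molecules pass between them. In neurons it forms an electrical synapse, and in glia it couples cells into sheets that pass calcium signals and metabolites. Innexins assemble into channels of 1 or more kinds of subunit, and different tissues of the fly use different members of the family. The gene shakB is known for the electrical synapses of the giant fibre escape circuit. The genes ogre and Inx2 are known from glia and the developing nervous system, Inx3 from epithelia where it partners Inx2, Inx6 and Inx7 from neurons of the mushroom body circuit, and zpg from the germ line.

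In all, 189 cells were kept, of which 50 came from mutant and 48 from wild-type females, and 49 from mutant and 42 from wild-type males. Their totals ran from 20875 to 3045780 counts, with group medians between 648291 and 1144578. Levels are given as CPM, a cell's or group's count scaled to a fixed total over all listed genes. Of the kept cells, 175 had at least 100 CPM of Tdc2, tyrosine decarboxylase, and are called Tdc2-positive; the other 14 were 5 female cells (1 mutant, 4 wild type) and 9 male cells (5 mutant, 4 wild type). Of the deposited columns, 19 pairs were nearly the same cell, 9 of them with partners in different groups of genotype and sex. Pairs across groups were kept in both groups. Without any cell of a pair, 48 mutant and 47 wild-type female cells and 38 mutant and 28 wild-type male cells would remain. Sex and running number of the cell were almost the same split. Of 3 stretches of 96 numbers, the third held all 50 mutant and 39 of the 48 wild-type female cells and no male cell.

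Of the 8 innexins, 6 lie on the X chromosome (dm6 build). The genes ogre (X:6974034-6981683, minus strand), Inx7 (X:6991612-6993612, minus strand) and Inx2 (X:6998672-7004151, plus strand) sit within 30.1 kb. Between the counted transcripts lie 9.93 kb from ogre to Inx7 and 5.06 kb from Inx7 to Inx2. Also on X are Inx5 (X:19168777-19170883), Inx6 (X:20267821-20269769) and shakB (X:20761071-20923969), all on the minus strand. Inx3 lies on 3R (28853606 to 28859214) and zpg on 3L (6604450 to 6606032). Values are sums over the exons of 1 transcript per gene, so isoforms that differ from it are missed or mixed. The annotated ogre gene reaches 9635 bases further upstream than its counted transcript, and 10.23% of its annotated exon bases are shared with the antisense RNA CR44084.

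Of the 8 innexins, only shakB was read in most Tdc2-positive cells. At an equal depth of 190000 reads per cell, 161 Tdc2-positive cells remained, and shakB was read in all but 10 of them (93.8%, interval 88.9 to 97). ogre was read in 34 (21.1%, 15.1 to 28.2), Inx2 in 33 (20.5%, 14.6 to 27.6), Inx7 in 31 (19.3%, 13.5 to 26.2), Inx3 in 25 (15.5%, 10.3 to 22.1) and Inx6 in 2 (1.24%, 0.151 to 4.42). No read of Inx5 or zpg was found in any kept cell. For 0 of 161 cells, allowing 3 cells gives a share of up to 1.86% among cells of this kind, and the exact interval reaches 2.265%. Neither sets a limit on cells that express the genes below this depth. With a threshold of 20% of cells, 3 of 8 innexins counted as read, namely shakB, ogre and Inx2; Inx2 lay just inside the threshold and Inx7 just outside. Among all 17104 listed genes 42.3% passed it, so the count of 3 is near that of genes at large.

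To show what share a gene listed as a marker of another tissue can reach, 14 marker genes of photoreceptors, fat body, haemocytes and germ line were read in the same cells. Whether the sorted neurons themselves express any of them was not tested. They were read in 0% to 23.6% of the Tdc2-positive cells, with a median of 4.66%. The highest was apolpp, the lipoprotein gene of the fat body, at 23.6%, followed by the photoreceptor arrestin Arr2 at 16.8% and the germ line gene nos at 16.2%. The shares of ogre, Inx2, Inx7 and Inx3 fell inside that range, though those of ogre, Inx2 and Inx7 were above every marker but apolpp. They are not read as expression by the Tdc2-positive cells as a whole, and the range cannot decide expression in some of these cells. Shares also set unlike levels side by side. In sum apolpp had 7.53 CPM, Arr2 12.5 and nos 1.03, against 23.7 for ogre, 27.2 for Inx2, 6.64 for Inx7 and 8.08 for Inx3. The share of shakB lay far above the range. Without thinning the same cells had ogre in 22.4%, Inx2 in 29.8%, Inx7 in 23.6% and Inx3 in 17.4%, while apolpp was in 54%, the yolk protein gene Yp2 in 47.8% and nos in 41.6%.

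The level of shakB was spread over most cells. In females its summed level was 155.8 CPM in mutants (interval 151.9 to 159.9) and 180.4 in wild type (176.7 to 184.2). In males it was 146.9 in mutants (143.5 to 150.3) and 144.7 in wild type (141.2 to 148.3). In mutant female cells it ran from 0 to 683.1 CPM around a median of 127.4, and in wild-type female cells from 0 to 594.8 around 160.2. In mutant male cells it ran from 0 to 485.8 around 130.5, and in wild-type male cells from 0 to 363.4 around 105.4. Wild-type females were the highest group, the 2 male groups did not differ beyond counting error, and the cells of all 4 groups overlapped over most of their range. Among the 175 Tdc2-positive cells the median was 130.5 CPM, the middle quartiles ran from 71.7 to 208.4, and 9 cells were at 0.

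No single cell set the shakB sums. The cell with the most reads held between 9.02% and 14.8% of a group's shakB counts, and 28 cells were needed to hold 50% of all of them. By contrast 3 cells held 50% of the ogre counts, 2 those of Inx2, 4 those of Inx3 and 8 those of Inx7. Of the kept cells, 64% had at least 100 CPM of shakB and none had 1000, whereas ogre had 18 cells at 100 and 6 at 1000 and Inx2 had 19 and 5. Across the 189 cells the rank correlation of shakB with the number of genes read in the cell was 0.29 and with the total count 0.02.

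Among Tdc2-positive cells at equal depth, 13 had under 100 CPM of Tbh, the enzyme that turns tyramine into octopamine. In these, shakB was read in 11 (84.6%, interval 54.6 to 98.1) and summed to 74.7 CPM. Of the cells with at least 100 CPM of Tbh, all but 8 had shakB (94.6%, 89.6 to 97.6), which summed to 160.9 CPM. The lower Tbh class had the lower shakB level, while the shares overlapped in their intervals.

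**Figure D1:**
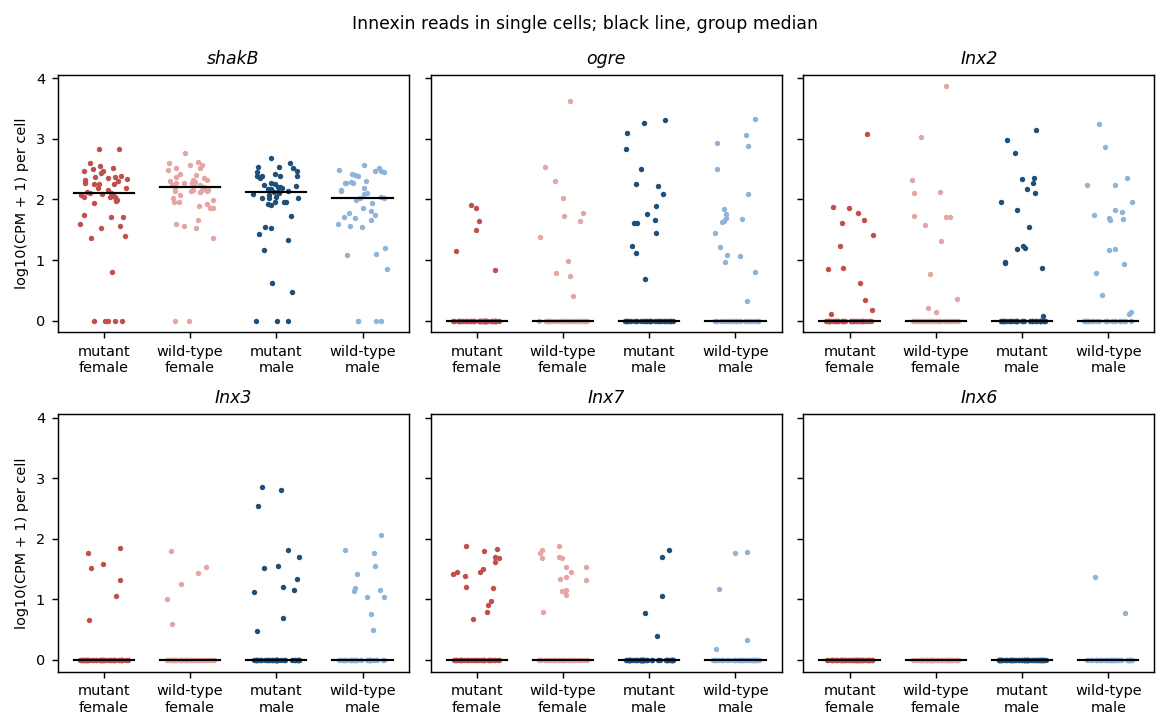
Each point is 1 kept cell, with the innexin level on the y axis as log10(CPM + 1) and the 4 groups on the x axis; the black line is the group median. The shakB points form a band with medians of 105.4 to 160.2 CPM in every group, while the medians of ogre, Inx2, Inx3, Inx7 and Inx6 lie at 0 and single cells reach up to 4184 CPM (ogre) and 7385 CPM (Inx2).

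The other innexins with many reads were concentrated in few cells. In females ogre summed to 3.46 CPM in mutants (interval 2.89 to 4.10) and 105.0 in wild type (102.2 to 107.9), and in males to 61.2 in mutants (59 to 63.4) and 56.3 in wild type (54.1 to 58.6). It was read in 6, 12, 17 and 19 cells of these groups, its median was 0 in all 4, and its highest cells were at 80.4, 4184, 2067 and 2126 CPM. Inx2 summed to 21.4 CPM (19.9 to 22.9), 186.2 (182.4 to 190.1), 48.9 (46.9 to 50.9) and 59.3 (57.0 to 61.5) in the same order. It was read in 14, 14, 18 and 19 cells, again with medians of 0, and its highest cells were at 1220, 7385, 1378 and 1748 CPM. The high wild-type female sums of both genes came from 1 cell, which held 78% of that group's ogre and 77.7% of its Inx2 counts.

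In females Inx3 summed to 2.33 CPM in mutants (interval 1.89 to 2.89) and 3.16 in wild type (2.68 to 3.70), and in males to 22.1 in mutants (20.8 to 23.5) and 6.28 in wild type (5.57 to 7.06). It was read in 7, 6, 13 and 12 cells, with highest cells at 68.2, 62.1, 703.3 and 114.2 CPM. The mutant male sum was the highest, and its top 5 cells held 85.1% of it. Inx6 had 34 counts in all, in 2 wild-type male cells at 22.6 and 4.88 CPM, both with over 100 CPM of nrv2. Inx5 and zpg had 0 counts in every group, which allows up to 0.0791 CPM in the shallowest group, the mutant females.

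Per kilobase of counted transcript and over all kept cells, the level was 27.8 CPM for ogre, 15.8 for Inx2, 10.6 for shakB, 4.18 for Inx3, 3.87 for Inx7 and 0.100 for Inx6. These levels came from 54 cells with a read of ogre, 65 of Inx2 and 175 of shakB. Without the wild-type female cell with the most ogre and Inx2 they were 17.5 for ogre, 8.35 for Inx2 and 10.6 for shakB, which put Inx2 under shakB. Over Tdc2-positive cells they were 11.5, 5.26 and 10.4. In the cells with a read the median was 47.5 CPM for ogre, 46.8 for Inx2, 22.9 for Inx3, 26 for Inx7 and 143.1 for shakB, on the scale that is not divided by length.

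Of the 8 innexins, 3 followed nrv2. Over the 189 cells the Spearman rho with nrv2 was 0.56 for ogre, 0.47 for Inx2 and 0.40 for Inx3, against 0.14 for Inx6, -0.08 for shakB and -0.12 for Inx7. A rho of at least 0.3 was reached by 2.07% of all genes with a read and by 2.17% of those whose group mean was 20 CPM or more. The values of ogre, Inx2 and Inx3 lay above 99.6%, 99% and 98.7% of the latter. These are descriptions of cells of the same 4 groups that differ in depth; the rho of nrv2 itself with the total count was -0.17, and that of ogre, Inx2 and Inx3 with the total count ran from -0.15 to -0.05.

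**Figure D2:**
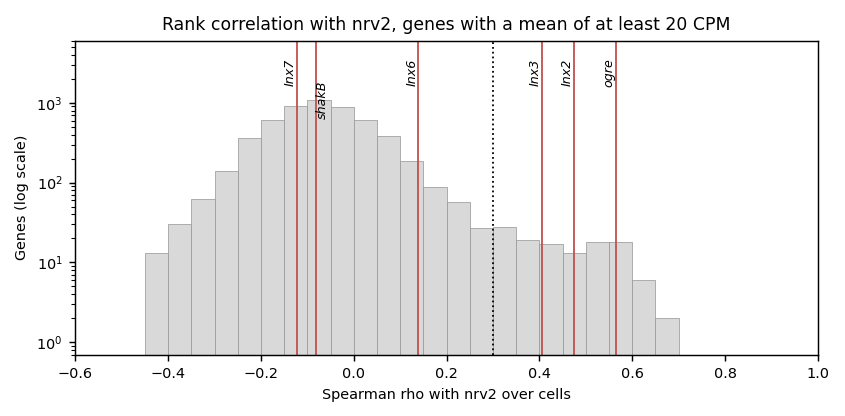
Grey bars count genes whose group mean was 20 CPM or more by their Spearman rho with nrv2 over 189 cells, on a log scale, and red lines mark the innexins. The lines of ogre (0.56), Inx2 (0.47) and Inx3 (0.40) lie right of the dotted threshold of 0.3, and those of shakB, Inx7 and Inx6 left of it.

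The relation was seen within most groups. For ogre, females had a rho of 0.29 (mutant) and 0.43 (wild type), and males 0.68 and 0.67. For Inx2 it was 0.26, 0.48, 0.45 and 0.65 in the same order, and for Inx3 0.41, -0.02, 0.56 and 0.47. The mutant females, who had the least nrv2, were below 0.3 for ogre and Inx2, and the wild-type females were near 0 for Inx3. Among the 175 Tdc2-positive cells alone rho was 0.43 for ogre, 0.36 for Inx2 and 0.38 for Inx3.

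The same 3 innexins ran with other glial markers and against the marker of the sorted type. Of 14 glial markers other than nrv2, 8 had a rho of at least 0.3 with ogre, 7 with Inx2 and 7 with Inx3, and none with shakB or Inx7. With ogre these included the astrocyte gene alrm at 0.59, the glutamine synthetase gene Gs2 at 0.58 and the glial fate gene repo at 0.32. The broad glial markers loco and drpr had -0.07 and -0.10 with ogre and -0.09 and -0.09 with Inx2. At equal depth loco was read in 77.6% and drpr in 90.7% of Tdc2-positive cells. With and without an nrv2 read these shares were 77.9% and 77.3% for loco, and 92.6% and 87.9% for drpr. Only 3 Tdc2-positive cells had no read of any listed glial marker, and shakB was read in 0 of these 3. The Spearman correlation with Tdc2 was -0.46 for ogre, -0.36 for Inx2 and -0.24 for Inx3. Of 6 neuronal markers none reached 0.3 with ogre, Inx2 or Inx3, and 1 did with shakB.

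These 3 genes had their highest levels in the cells with the most nrv2. In the 76 cells with under 10 CPM of nrv2, ogre summed to 2.73 CPM, in the 49 cells with 10 to under 100 CPM to 5.98, and in the 64 cells with at least 100 CPM to 201.4 (interval 197.6 to 205.4). Inx2 summed to 2.58, 7.11 and 282.7 CPM (278.1 to 287.3), and Inx3 to 1.90, 3.72 and 24.8 CPM (23.5 to 26.2). The class with the most nrv2 held 95.2% of all ogre, 96.2% of all Inx2 and 78.8% of all Inx3 counts. It held 30.1% of the shakB and 12.5% of the Inx7 counts. shakB showed no such order, at 161.0, 142.2 and 167.3 CPM, and Inx7 was lowest in the class with the most nrv2, at 8.01, 7.21 and 2.79 CPM.

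Shares of cells with a read gave the same order at equal depth. ogre was read in 5.63% (interval 1.56 to 13.8), 20.5% (9.80 to 35.3) and 54.4% (40.7 to 67.6) of the cells of the 3 classes. Inx2 was read in 7.04% (2.33 to 15.7), 15.9% (6.64 to 30.1) and 56.1% (42.4 to 69.3), and Inx3 in 7.04%, 9.09% and 36.8% (24.5 to 50.7). For each of these 3 genes the interval of the highest class lay above that of the lowest. The cells were pooled over the 4 groups and taken as independent, so this is a description and no test. shakB was read in 94.4%, 90.9% and 91.2% and Inx7 in 21.1%, 15.9% and 15.8%, with overlapping intervals.

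**Figure D3:**
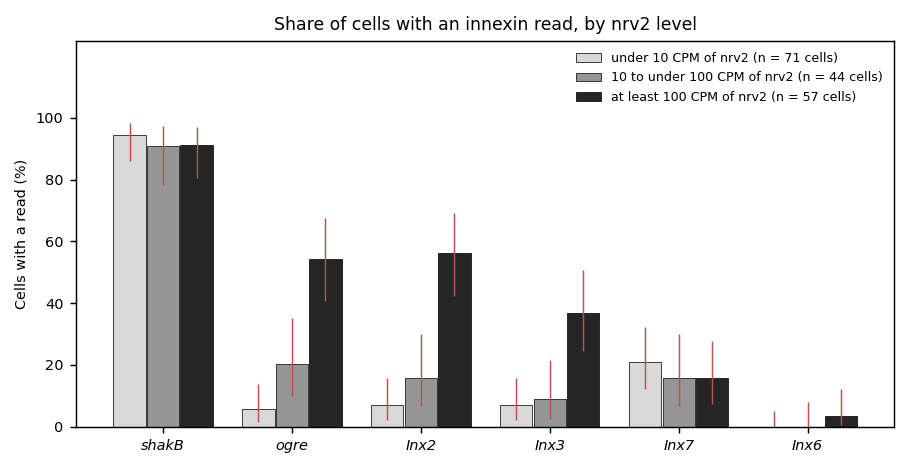
Bars give the percentage of cells with a read of each innexin after thinning to 190000 reads, in 3 classes of nrv2 level, and red lines are exact binomial 95% intervals. The bars of ogre, Inx2 and Inx3 are highest, at 54.4%, 56.1% and 36.8%, in the class with at least 100 CPM of nrv2, while shakB stays between 90.9% and 94.4%.

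The pattern was also present inside the Tdc2-positive cells. Of the 95 Tdc2-positive cells with an nrv2 read at equal depth, 33.7% had ogre (interval 24.3 to 44.1), 29.5% Inx2 (20.6 to 39.7) and 21.1% Inx3 (13.4 to 30.6). Of the 66 without an nrv2 read, 3.03% had ogre (0.369 to 10.5), 7.58% Inx2 (2.51 to 16.8) and 7.58% Inx3 (2.51 to 16.8). For ogre and Inx2 these intervals did not overlap, which is a description of pooled cells and no test. Listed markers of other cells could show the same order. With and without an nrv2 read, apolpp was in 32.6% and 10.6% of these cells and Arr2 in 21.1% and 10.6%. ChAT was in 16.8% and 6.06% and VAChT in 17.9% and 4.55%, whereas nos (15.8% and 16.7%) and Gad1 (25.3% and 27.3%) did not show it. In Tdc2-positive cells with at least 100 CPM of nrv2 the summed levels were 88.7 CPM for ogre, 100 for Inx2 and 24.9 for Inx3, against 2.73, 2.58 and 1.90 in those with under 10 CPM. Of these 50 cells, 5 had 986.5 CPM of Tdc2 or less, and they held 69.8% of the class's ogre, 67.5% of its Inx2 and 66.1% of its Inx3 counts. Without them the levels were 28.4, 34.5 and 8.93 CPM, and the class medians with them were 0, 0.893 and 0. Together the 50 cells had 83399 CPM of Vmat, the vesicular monoamine transporter of the sorted type, and 3128 CPM of the synaptic gene nSyb. Whether such a well held RNA of more than 1 cell was not tested.

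Many ogre and Inx2 reads came from the few cells with little or no Tdc2. The 14 cells with under 100 CPM of Tdc2 held 5.17% of all counts but 60.9% of the ogre, 68.4% of the Inx2, 14.2% of the Inx3 and 6.87% of the shakB counts. The wild-type female cell numbered 54 alone held 37.3% of all ogre and 47.4% of all Inx2 counts, and without it the other 13 held 37.7% and 39.9%. Of the 14 cells 6 had a Tdc2 read, at up to 77.7 CPM. ogre was read in 13 of them, from 0 to 4184 CPM around a median of 322.5, and Inx2 in 12, from 0 to 7385 around 214.7. They had 2721 CPM of nrv2 and 536.6 CPM of Vmat in sum. Every one of them had an nrv2 read, from 155.1 to 7845 CPM, whereas repo was read in 7 of the 14. Of these cells 9 also had shakB, which summed to 209.3 CPM, and nSyb summed to 1749 CPM, so this set was not free of neuronal RNA.

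Some of the top cells showed the contrast at its clearest. The wild-type female cell numbered 54 had 4184 CPM of ogre, 7385 of Inx2 and 7845 of nrv2, with 7.24 CPM of Tdc2, 23.8 of Vmat and no read of shakB, Inx3 or repo. The mutant male cell numbered 3 had 2067 CPM of ogre, 1378 of Inx2, 625.2 of Inx3 and 690.1 of repo, with 3.24 CPM of shakB. The mutant male cell numbered 33 had 1273 CPM of ogre, 940.1 of Inx2 and 703.3 of Inx3, with 13.9 CPM of shakB and no read of repo. High ogre and Inx2 therefore went with little shakB in these 3 cells. In the wild-type female cell numbered 84 they did not: it had 1072 CPM of Inx2, 2436 of nrv2 and 615.8 of repo together with 419.4 CPM of shakB. The contrast was not general. Over the 14 cells with under 100 CPM of Tdc2 the median of shakB was 176.2 CPM, and over 189 cells its rho with ogre was 0.02.

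**Figure D4:**
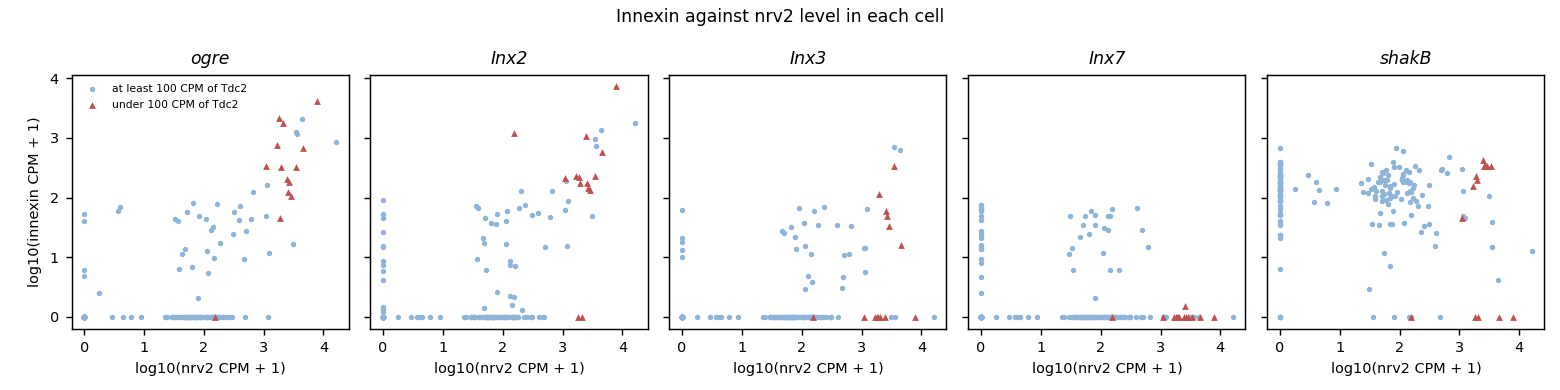
Each panel plots 1 innexin against nrv2 in the 189 kept cells, both as log10(CPM + 1), with red triangles for the 14 cells with under 100 CPM of Tdc2. For ogre and Inx2 most triangles lie at the upper right, up to 4184 and 7385 CPM, whereas shakB forms a level band and Inx7 is at 0 in 13 of the 14 triangles.

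Inx7 had a pattern of its own among the innexins. In females it summed to 8.65 CPM in mutants (interval 7.74 to 9.64) and 12.6 in wild type (11.6 to 13.6), and in males to 2.96 in mutants (2.51 to 3.49) and 1.10 in wild type (0.826 to 1.47). Its highest cells were at 75.6, 74.8, 64.6 and 60 CPM, its median was 0 in every group, and it was read in 17, 17, 5 and 5 cells. At equal depth it was read in 29.6% (16.8 to 45.2) of mutant and 31.6% (17.5 to 48.7) of wild-type Tdc2-positive cells of females, and in 7.14% (1.5 to 19.5) and 8.11% (1.70 to 21.9) of those of males. Both female groups were above both male groups in sum and in share, and the intervals of the shares overlapped.

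Sex and running number can hardly be told apart in this difference. Apart from 1 wild-type female cell in the second stretch, only wild-type cells numbered 1 to 96 came from both sexes. There Inx7 summed to 11.5 CPM (interval 9.67 to 13.5) in 8 female cells and 1.48 CPM (1.02 to 2.13) in 20 male cells, with 3 cells holding a read in each. Females of the third stretch had 8.65 CPM (mutant) and 13.2 CPM (wild type), and males of the second stretch had 4.89 CPM (mutant) and 0.783 CPM (wild type). The log2 ratio of male to female, on the log2(CPM + 1) scale, was -2.69 in wild type and -1.28 in mutants. In wild type it was -2.33 within cells numbered 1 to 96, -2.97 above 96 and -3.04 in cells with under 10 CPM of nrv2; in mutants it was -0.71 above 96 and -1.93 with under 10 CPM of nrv2. With a mean of 6.32 CPM over the groups, Inx7 lay under the minimum of 20 CPM for the comparison across genes.

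**Figure D5:**
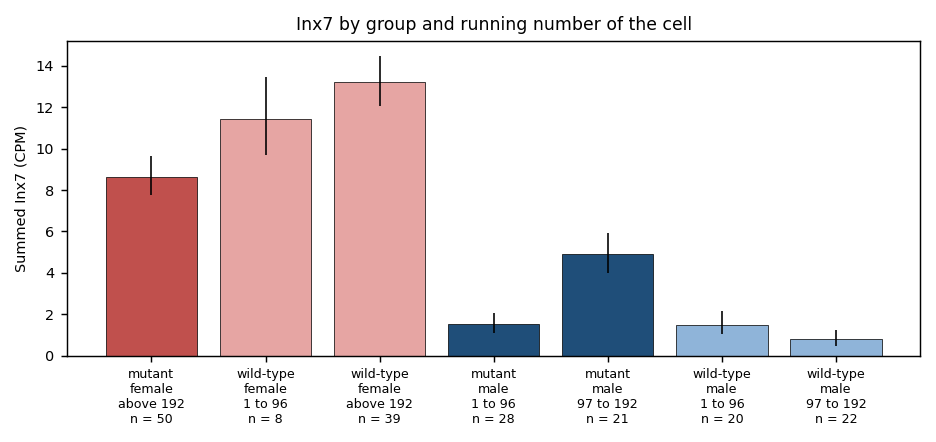
Bars give the summed Inx7 level in CPM for each group and stretch of running numbers, with exact Poisson 95% intervals and the number of cells; the stretch with 1 wild-type female cell is left out. The 3 female bars (8.65, 11.5 and 13.2 CPM) are higher than the 4 male bars (0.783 to 4.89 CPM).

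Inx7 ran with neither nrv2 nor the other innexins. At equal depth 31 cells had an Inx7 read, all of them Tdc2-positive. Of these, 4 (12.9%) also had ogre and 4 (12.9%) Inx2, against 21.1% and 20.5% of all Tdc2-positive cells. Inx3 was in 6 (19.4%, against 15.5%) and shakB in 28 (90.3%, against 93.8%). Over 189 cells the rho of Inx7 with ogre was -0.16. The gene closest to Inx7 in pattern was the long non-coding RNA CR43837 (X from 6995882 to 6997799, minus strand), with a rho of 0.49. It was chosen after its values were seen. CR43837 lies between Inx7 and Inx2, on the strand of Inx7 and 2269 bases upstream of its counted start, with no shared exon. Without thinning CR43837 was read in 66 of the 189 cells. Of the 31 cells with Inx7, 21 (67.7%) had CR43837, and these were 41.2% of the cells with CR43837. Within groups rho was 0.29 (mutant) and 0.37 (wild type) in females, and 0.65 and 0.51 in males. CR43837 had a rho of -0.12 with ogre and -0.16 with Inx2, the other innexins of the same 30.1 kb.

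The innexins fell into sets within cells. Of the kept cells at equal depth, 83 had a read of 1 innexin, 46 of 2, 24 of 3, 12 of 4, 3 of 5 and 4 of none. In 78 cells shakB was the only innexin read, and 19 had shakB with Inx7 alone. ogre and Inx2 were read together in 26 cells, which were 59.1% of the cells of each, with a rho of 0.45 over 189 cells. ogre and Inx3 shared 18 cells (40.9% of the ogre and 60% of the Inx3 cells, rho 0.37), and Inx2 and Inx3 shared 20 (45.5% and 66.7%, rho 0.43). Without the 5 cells with the most nrv2 these values of rho were 0.38, 0.37 and 0.43. shakB had a rho between 0.01 and 0.10 with ogre, Inx2 and Inx3. Both cells with Inx6 also had ogre, Inx2, Inx3 and shakB, the last of which was in 93.8% of Tdc2-positive cells.

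The genes closest to ogre in pattern were ninaB, a carotenoid-cleaving enzyme needed for vitamin A, and Adgf-D, an adenosine deaminase growth factor, both at a rho of 0.64, and alrm at 0.59. ninaB and Adgf-D overlap, so that 6.65% of the ninaB and 5.02% of the Adgf-D exon bases are shared with other genes. Closest to Inx2 were the cytochrome P450 gene Cyp28a5 (0.57), CG14141 (0.56) and the inward rectifier potassium channel Irk2 (0.56). In mutant females alone rho was 0.12 for alrm with ogre, and 0.07, 0.21 and 0.28 for the 3 genes with Inx2, while ninaB and Adgf-D gave no value there. All 6 also had a rho with nrv2 between 0.50 and 0.58. Closest to shakB were DIP-delta, an immunoglobulin-domain protein of the neuronal surface (0.52), CG34114 (0.46) and CG43143 (0.46), whose rho with nrv2 ran from -0.09 to 0.11. A rho of at least 0.3 was reached by 2.29% of genes with ogre, 1.84% with Inx2 and 1.83% with shakB. For Inx3, outside the rule of 20% of cells and named after its values were seen, the closest genes were the glutathione transferase GstD1 (0.51), Cyp28a5 (0.47) and the serpin Spn43Ab (0.45).

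Other cell junction genes were set beside the innexins. Of 22 genes of septate junctions and of the glial barrier, nrv2 aside 13 reached a group mean of 20 CPM, and none had a rho of at least 0.3 with nrv2, where 2.17% of all genes of that level did, so a count of 0 is near the share at large. Their median was -0.04. Over all 5584 genes the median was -0.07, over 6 neuronal markers -0.03, and over 7 glial markers with that mean 0.58, with 5 of 7 at 0.3 or more. A rho of 0.3 or more with nrv2 was not confined to glial markers. Among listed markers of other transmitters with that mean, VAChT had 0.39, ChAT 0.34 and Gad1 0.30, while VGAT had -0.07 and VGlut -0.12. The photoreceptor gene Arr2 had 0.35. Of the septate junction genes, which tie insulating glia together, Nrx-IV had -0.22 and cora -0.06. The barrier receptor gene moody, at a mean of 4.76 CPM, had 0.23.

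Comparisons between groups used the genes whose group mean was 20 CPM or more, which 3 innexins (ogre, Inx2 and shakB) passed, and a difference of at least 2-fold on the log2(CPM + 1) scale. Between mutant and wild-type females the log2 ratio was -4.57 for ogre, -3.07 for Inx2 and -0.21 for shakB, so that 2 of 3 passed 2-fold where 4.64% of all genes tested did. In males the ratio of the same genes was 0.12, -0.27 and 0.02, and none passed, against 2.42% of genes. The ratio of male to female in wild type was -0.89, -1.64 and -0.32, with 1 of 3 past 2-fold against 7.79% of genes. In mutants it was 3.80, 1.16 and -0.08, with 2 of 3 past 2-fold against 7.2% of genes. shakB stayed within 2-fold in all 4 comparisons. These comparisons share their groups in pairs, and their ratios are not independent.

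The ratios of ogre and Inx2 depended on which cells were counted. Within Tdc2-positive cells the female ratios of mutant to wild type were -0.66 for ogre and -0.03 for Inx2, and in wild type the ratios of male to female turned to 2.26 and 2.80. Without the top cell of each group the female ratios were -2.97 and -2.54, and among females numbered above 96 they were -0.92 for ogre and 1.64 for Inx2. Of the 8 wild-type female cells numbered 1 to 96, 4 had under 100 CPM of Tdc2, and these 8 cells summed to 382.5 CPM of ogre and 698.3 of Inx2, against 7.09 and 5.21 CPM in the 39 of the third stretch. In females nrv2 itself summed to 57.1 CPM in mutants and 357.4 in wild type, and in males to 291.0 and 625.3. The summed level of 15 glial markers was 1128, 2983, 3693 and 3166 CPM in the same order, of which Gs2 alone made up 703.1, 2144, 2524 and 1858. Per-cell medians of this sum ran from 323.1 to 385.8, lowest cells from 0 to 79.4 and highest cells from 62317 to 117760. repo was at 0.290, 16.3, 13 and 31.2 CPM, and of the 15 markers only Indy was at 0 in a group, the mutant females. The 7 glial markers other than nrv2 with a group mean of 20 CPM or more differed. Among females 2 were at least 2-fold lower in mutants, against 4.64% of genes past 2-fold, and the median log2 ratio was -0.31. Cyp4g15 had -2.82 and Gs2 -1.61, against -0.37 for Eaat1, -0.31 for Gat, -0.28 for alrm, -0.24 for drpr and 0.59 for loco. In males only Eaat1 passed 2-fold (1.18), against 2.42% of genes, and the median was 0.44. Fewer glial cells or less glial RNA per well cannot be told apart from less ogre and Inx2 per glial cell, and the part of glial RNA in these ratios was not tested otherwise.

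Inx3 and Inx7 lay under the 20 CPM minimum and are given as values. For Inx3 the log2 ratio of mutants to wild type was -0.32 among females and 1.67 among males, and for Inx7 -0.49 and 0.91. The male Inx3 ratio was 1.92 in cells numbered 1 to 96 and 0.22 above 96. Without near-identical pairs the male Inx7 ratio was 0.16. The ratio of male to female was 0.81 in wild type and 2.79 in mutants for Inx3.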

How the data were processed

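Per the file headers, the authors made the deposited table with HOMER's analyzeRepeats on dm6, counting exons, condensing to 1 transcript per gene and without normalization. The deposited values are treated as estimated counts, which the authors made per gene in steps of 0.5, per the file headers as raw sums over exons, and 56.2% of the values above 0 are whole. The submitters' processing notes also name FastQC and edgeR; no versions are given in the sources used here. Libraries were Nextera XT, which does not mark strand, so sense and antisense reads cannot be told apart.

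Of 212 columns, 13 under 10000 counts or 500 genes were left out, and near-identical columns (Pearson correlation of log2(CPM + 1) of at least 0.95) of 1 group were averaged, which left 189 cells. Shares come from cells thinned to 190000 reads with a fixed seed, which left out 17 shallower cells. Doublets were not called. Gene positions were checked against the Ensembl annotation of the same build. Intervals are exact Poisson (sums) and Clopper-Pearson (shares) at 95%; a count of 0 allows 3 counts. Reads carry no molecular identifiers, so intervals of sums cover counting error only. Intervals of shares take each cell as an independent draw and hold no spread between animals. With 1 sample per group no test was run. Spearman rho is across cells. The rule for named genes was the 8 innexins, nrv2, Tdc2, Tbh and Vmat, markers by count, and the 3 genes closest in rho to each innexin read in at least 20% of Tdc2-positive cells. Members and lists were chosen with earlier results of these data known. Calculations used Python 3.11.15 with numpy 2.4.6, pandas 2.3.3 and scipy 1.17.1. The ratio and rank-correlation steps were checked on simulated data. The simulated ratios held no gene whose counts sat in a single cell, so this check does not cover the ogre and Inx2 ratios. A planned comparison of innexin protein sequences was not run. Alternatives in cells with under 10 CPM of nrv2 were chosen after seeing the data.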

Additional observations from a re-analysis of the deposited data

Results flagged for a closer look

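Innexin reads were also present in the 13 columns below the cell filter, which no comparison used: 14 counts of ogre, 24 of Inx2 and 568.5 of shakB among 730668 counts in all, with shakB in 4 of the columns. On the log2 scale, mutants over wild type had opposite signs in females and males for ogre (-4.57 and 0.12), Inx3 (-0.32 and 1.67), Inx7 (-0.49 and 0.91) and shakB (-0.21 and 0.02). Males over females had opposite signs in wild type and mutants for ogre (-0.89 and 3.80) and Inx2 (-1.64 and 1.16). The wild-type signs were not stable: ogre was 0.38 with the mean of per-cell CPM, 0.71 without each group's top cell, 2.26 among Tdc2-positive cells and 2.61 above number 96, and Inx2 was 2.80 and 1.49 under the last pair of settings. With 1 sample per group the differences between these ratios were not tested, and the male levels of shakB overlapped in their counting intervals.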

How the results depend on the processing

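No paired analysis was possible because the labels name no animal and each group is 1 sample. The count of innexins past 2-fold between mutant and wild-type females, 2 as reported, was 0 among Tdc2-positive cells and with a minimum mean of 100 CPM, and 1 among cells numbered above 96 and among cells with under 10 CPM of nrv2. In males it was 0 as reported and 1 with under 10 CPM of nrv2 or with no filter on low values. Between wild-type males and females it was 1 as reported, 0 without each group's top cell, with under 10 CPM of nrv2 and with a minimum of 100 CPM, and 2 among Tdc2-positive cells, without near-identical pairs, within cells numbered 1 to 96, within those above 96 and with no filter. Between mutant males and females it was 2 as reported, 1 above 96, 0 with a minimum of 100 CPM and 4 with no filter. Inx2 changed direction in females (1.64 above 96, 0.75 with under 10 CPM of nrv2) and between wild-type males and females (2.80 in Tdc2-positive cells, 1.49 above 96). Among ratios within 2-fold, that of wild-type males to females turned from -0.89 to between 0.38 and 2.61 under 4 settings for ogre, and from 0.81 to -2.67 with under 10 CPM of nrv2 for Inx3. The cause was not tested.

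The count of innexins read in Tdc2-positive cells, 3 as reported, was 5 at 10% of cells and 1 at 50% of cells, with at least 1000 CPM of Tdc2 or with at least 2 reads; shakB was the 1 left at 50%. It was 4 without thinning and 2 with under 10 CPM of nrv2, where ogre (5.63%) and Inx2 (7.04%) were under the threshold. The count that followed nrv2, 3 as reported, was 1 in mutant females alone and 2 in wild-type females alone. It was 2 with repo in place of nrv2, where Inx3 had a rho of 0.29. Over 15 settings rho ran from 0.29 to 0.69 for ogre, 0.26 to 0.67 for Inx2 and -0.0216 to 0.56 for Inx3, where -0.0216 is the value in wild-type females alone, and reached 0.3 in 14, 14 and 13 of them. It stayed under 0.3 in all 15 for Inx7 (-0.28 to 0.09) and shakB (-0.21 to 0.12). Cells numbered 1 to 96 gave no value for females by genotype or for mutants by sex, since no mutant female cell has such a number. Depth limits Inx5, Inx6 and zpg, and each group being 1 sample limits every comparison.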
